A study of Mus musculus with 15 samples.

Results

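The 38 genes described here mark cells other than neurons: radial glia and progenitors (7 genes), astrocytes (8), the oligodendrocyte lineage (6), microglia (6), endothelial cells (4), pericytes (2), fibroblasts and meninges (3), choroid plexus (1) and erythroid cells (1). They were chosen by symbol as textbook markers, with earlier results of these data known. All 38 were found among the 22180 genes named by a single-gene transcript cluster of the arrays. Where a gene had several clusters, the one with the highest mean over all arrays was read. The filter on dim genes left 35 members for testing, and Pdgfra, Cldn5 and Dcn were not tested. The question was what the sorted cells held besides neurons, and whether that differed between the populations.

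The cells came from the embryonic thalamus of mice that were Gbx2CreER-IRES-EGFP/+::R26lsl-tdTomato/+ on a C57BL/6 background. All groups carried both alleles, so no array stands for a thalamus without the Gbx2 insertion. The Gbx2 locus drives EGFP, which reports cells that use this thalamic transcription factor gene, and a tamoxifen-dependent Cre, which switches on tdTomato from the Rosa26 locus in cells that had active Cre at the time of tamoxifen and in all their descendants. Tamoxifen (4 mg to the pregnant female) was given at E9 where embryos were taken at E18.5 and at E9.5 where they were taken at E14.5, so stage and day of labelling cannot be told apart. The groups were red, green and double-labelled cells of E18.5 embryos and red and green cells of E14.5 embryos, with 3 arrays of separate biological replicates in each of the 5 groups. The sorting gates are not given in the sources used here. The marker classes therefore describe what passed those gates, and in sorted bulk RNA fewer cells of a type and less RNA per cell cannot be told apart.

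Radial glia are the stem cells that line the embryonic ventricle. They divide to give neurons first and astrocytes and oligodendrocyte precursors later, and their processes guide newborn neurons. Microglia enter the brain from the yolk sac, endothelial cells and pericytes build its vessels, and fibroblasts form the meninges that cover it. The first red blood cells of the embryo, also from the yolk sac, circulate through those vessels and carry embryonic globins. Several of the 38 genes are used outside the class they mark: Vim, an intermediate filament gene, is also found in young neurons and in vessel walls, and part of the Mbp locus is transcribed in neurons.

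Values are log2 signals as deposited, 1 value per gene and array. Among the 33794 rows of the table, 42.9% held a value that recurred, digit for digit, in at least 2 of the 9 E18.5 arrays, against 1.71% for the 6 E14.5 arrays and 0.009% across stages. Of the 38 members, 21 had such a repeat at E18.5 and 1 (Sox9) at E14.5. Mbp, for example, had 1 value, 6.38, in 4 of the 9 E18.5 arrays, from both green and double-labelled groups, and Hopx had 1 value, 5.59, in 5 arrays from all 3 groups. What produced the repeats is not given in the sources used here, and a small SD at E18.5 can come from them. The SD of all values was 1.34 in E18.5 red replicate 1 and 1.31 in double-labelled replicate 1, below the 1.44 to 1.51 of the other E18.5 arrays, and these are called the narrow-range arrays. The thalamic transcription factor genes Tcf7l2, Lhx2, Lhx9 and Rora stood above the background threshold defined below in all 15 arrays, and Gbx2 did so in 14.

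To show the stretch from which 5 of the members are transcribed, the 120 bases before the annotated start of Hbb-y, Slc1a3, Nes, Slc1a2 and Fabp7 are printed 5′ to 3′ on the strand of the gene, from RefSeq on GRCm38.p6. The first 4 are the members that differed between red and green cells at E14.5, and Fabp7 had the widest range over the 15 arrays. Capitals mark CCAAT and CACCC, the boxes for which globin promoters are known, and their reverse complements ATTGG and GGGTG.
Hbb-y: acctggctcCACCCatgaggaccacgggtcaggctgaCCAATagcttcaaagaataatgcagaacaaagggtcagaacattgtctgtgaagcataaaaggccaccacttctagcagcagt
Slc1a3: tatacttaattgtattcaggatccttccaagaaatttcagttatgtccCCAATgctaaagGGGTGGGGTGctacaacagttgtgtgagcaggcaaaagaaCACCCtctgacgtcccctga
Nes: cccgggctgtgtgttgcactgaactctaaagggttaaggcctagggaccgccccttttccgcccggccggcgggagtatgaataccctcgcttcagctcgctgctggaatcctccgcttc
Slc1a2: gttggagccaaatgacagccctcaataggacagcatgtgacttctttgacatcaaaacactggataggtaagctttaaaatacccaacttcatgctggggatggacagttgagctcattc
Fabp7: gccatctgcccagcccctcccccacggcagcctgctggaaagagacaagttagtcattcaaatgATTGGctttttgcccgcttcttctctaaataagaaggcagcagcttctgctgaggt
The stretches lie at chr7:103853208-103853327 (minus strand), chr15:8710808-8710927 (minus strand), chr3:87970973-87971092 (plus strand), chr2:102706318-102706437 (plus strand) and chr10:57784803-57784922 (plus strand). Hbb-y held CCAAT 83 to 79 bases and CACCC 111 to 107 bases before its start, both on the strand of the gene. Slc1a3 also held both boxes, with CCAAT 72 to 68 bases before the start and CACCC once on the strand of the gene and at 2 adjoining places on the opposite strand. Fabp7 held CCAAT on the opposite strand, and the stretches of Nes and Slc1a2 held neither box. Among 32851 mouse promoters of the same length, 21.3% held CCAAT and 31.7% held CACCC on either strand, so neither box is rare, and a match is only a description of the letters. A RefSeq promoter entry was matched for 26 of the 38 members.

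As a yardstick for unspecific signal, 1405 olfactory and vomeronasal receptor genes, which thalamic cells are not known to use, were read from the same arrays. A member counted as above background in an array when it exceeded the 95th percentile of these receptors there. That threshold was 5.80 to 6.28 at E18.5 and 5.18 to 5.35 at E14.5. Since probes differ in affinity, standing above it describes signal and does not rank genes by abundance.

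Of the 38 members, 5 were above the threshold in all 15 arrays: Vim, Fabp7, Slc1a2, Glul and Cx3cr1. The first 4 are genes of radial glia or astrocytes, encoding an intermediate filament protein, a brain fatty acid binding protein, a glutamate transporter and glutamine synthetase, and Cx3cr1 encodes the fractalkine receptor of microglia. Another 18 were above it in 0 arrays, and 15 in some. Counting members above the threshold in all 3 arrays of a group gave 7 for E18.5 red, 11 for E18.5 green, 8 for double-labelled, 9 for E14.5 red and 8 for E14.5 green cells. All 16 genes of a pan-neuronal list met that criterion in every group. The E18.5 counts leaned on single arrays, since leaving out red replicate 3 gave 12 for red cells and leaving out double-labelled replicate 1 gave 14 for double-labelled cells.

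**Figure D1:**
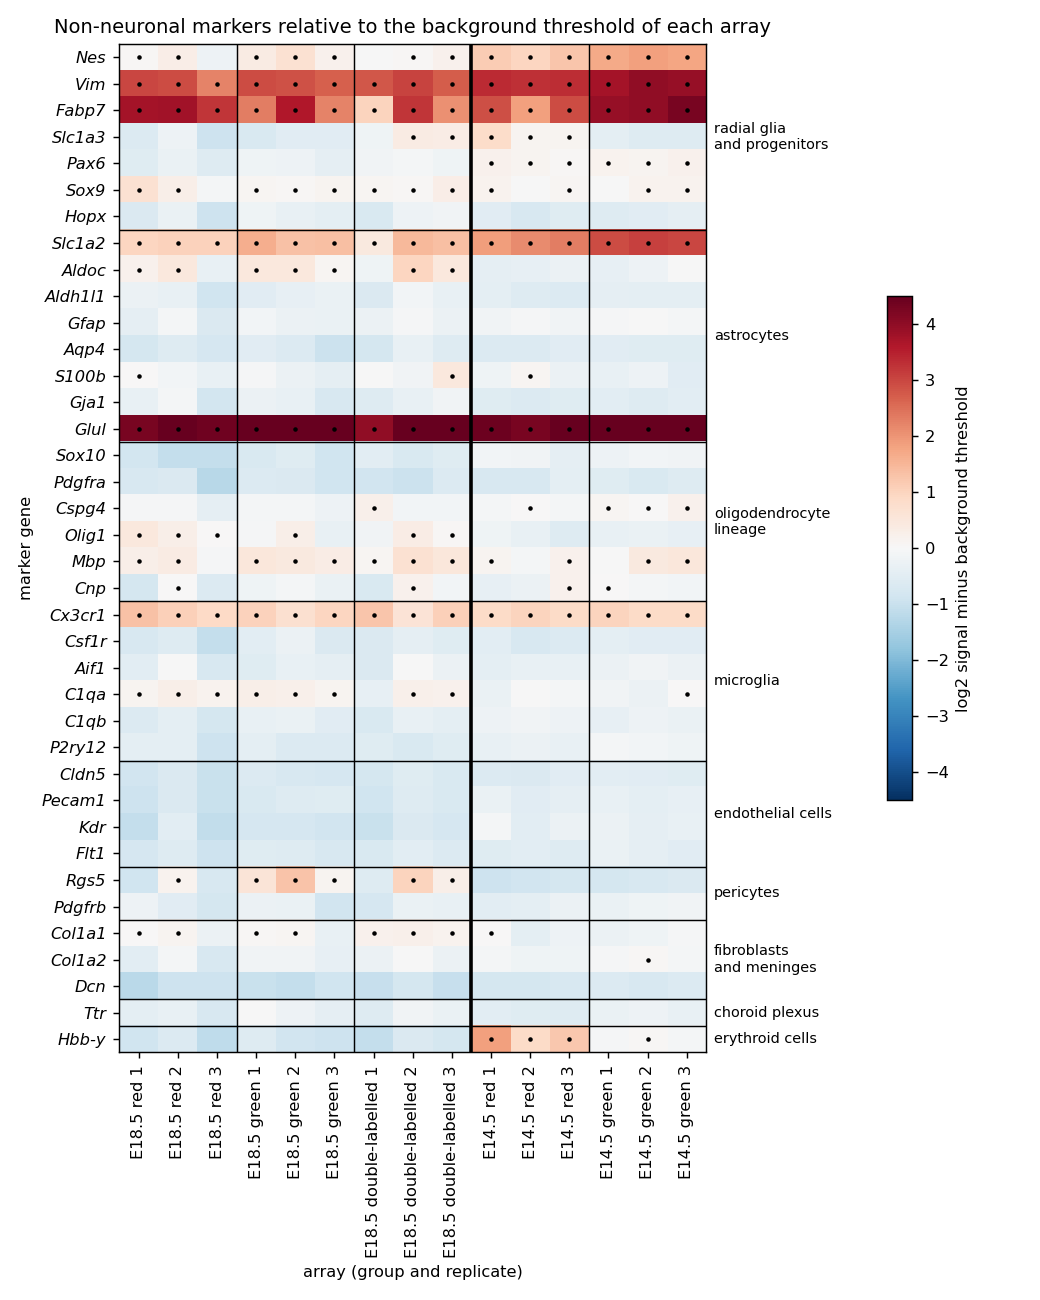
Log2 signal of each of the 38 marker genes (rows, by cell class) minus the background threshold of the same array, for the 15 arrays (columns); red is above the threshold, blue below it, colours end at 4.5 in either direction, and dots mark values above it. Vim, Fabp7, Slc1a2, Glul and Cx3cr1 carry dots in all 15 columns, while the 4 endothelial rows carry none.

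Among the markers of radial glia and progenitors, Vim and Fabp7 stood far above the threshold in every group. Fabp7 ranged from 7.18 to 9.97 over the 15 arrays. Nes, which encodes the intermediate filament protein nestin, was above it in 13 of 15 arrays and Sox9, a transcription factor of glial fate, in 12. Pax6, a transcription factor of progenitors, was above it in all 6 E14.5 arrays and in 0 of the 9 E18.5 arrays. Its deposited values were nonetheless higher at E18.5 (5.62 to 6.11) than at E14.5 (5.29 to 5.53), as was the threshold. These counts therefore show no fall of Pax6 between stages. Slc1a3, the glutamate transporter GLAST, was above the threshold in 5 arrays, 3 of E14.5 red and 2 of double-labelled cells. Hopx was above it in 0 arrays.

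The astrocyte markers split in the same way. Slc1a2 and Glul were above the threshold throughout, with Glul between 9.61 and 11.03. Aldoc, which encodes the brain form of aldolase, was above it in 7 of the 9 E18.5 arrays and in 0 of the 6 E14.5 arrays. Its values at E18.5 were 6.40, 6.39 and 5.94 in red, 6.33, 6.40 and 6.13 in green and 6.09, 6.79 and 6.35 in double-labelled cells, and at E14.5 they were 4.94, 4.996 and 4.95 in red and 4.82, 4.97 and 5.15 in green cells. The 3 E18.5 groups overlapped one another, and every E18.5 array exceeded every E14.5 array. S100b, a calcium-binding protein gene, was above the threshold in 3 arrays. Aldh1l1, Gfap, Aqp4 and Gja1, which encode a folate enzyme, the glial filament protein, a water channel and connexin 43 and are the markers most often used for differentiated astrocytes, were above it in 0 arrays.

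In the oligodendrocyte lineage, Sox10 and Pdgfra, the factor and receptor that define the precursors, were above the threshold in 0 arrays. Olig1, a lineage transcription factor, had values of 6.70, 6.20 and 6.28 in E18.5 red, 5.81, 6.19 and 5.68 in E18.5 green and 6.11, 6.14 and 5.92 in double-labelled cells, against 5.15, 5.01 and 4.63 in E14.5 red and 4.84, 4.88 and 4.80 in E14.5 green cells. It was above the threshold in 6 of the 9 E18.5 arrays, among them all 3 red ones, and in 0 at E14.5. Mbp, the myelin basic protein gene, was above it in 12 arrays, Cspg4 (the NG2 proteoglycan of precursors) in 5 and Cnp (a myelin enzyme) in 4.

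The microglial markers differed among themselves. Cx3cr1 was above the threshold everywhere, with values of 7.53, 6.998 and 7.17 in E18.5 red, 6.91, 6.64 and 6.998 in E18.5 green, 7.52, 6.40 and 6.96 in double-labelled, 6.20, 6.36 and 6.08 in E14.5 red and 6.19, 6.03 and 6.05 in E14.5 green cells. At E18.5 the lowest red and the highest green array shared a value, and double-labelled cells overlapped both, with the highest values in the narrow-range arrays. Of the 2 complement genes, C1qa was above the threshold in 8 of the 9 E18.5 arrays and 1 of the 6 E14.5 arrays, and C1qb in 0. Csf1r, Aif1 and P2ry12, which encode the growth factor receptor on which microglia depend, the cytoskeletal protein IBA1 and a purine receptor, were above it in 0 arrays.

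The 4 endothelial markers, Cldn5 of the tight junctions, the adhesion molecule Pecam1 and the VEGF receptors Kdr and Flt1, were above the threshold in 0 of 15 arrays. Flt1, the widest-ranging of them, was at 5.48, 5.35 and 5.34 in E18.5 red, 5.34, 5.34 and 5.31 in E18.5 green, 5.59, 5.34 and 5.27 in double-labelled, 4.80, 4.86 and 4.66 in E14.5 red and 4.90, 4.80 and 4.67 in E14.5 green cells. At E18.5 red and green cells met at a shared value and double-labelled cells overlapped both, and the 2 E14.5 groups overlapped. Of the pericyte markers, Pdgfrb was above the threshold in 0 arrays, and Rgs5, a regulator of G-protein signalling, in 6 arrays, all at E18.5. Rgs5 was at 5.31, 6.10 and 5.56 in E18.5 red, 6.43, 7.19 and 6.15 in green and 5.71, 6.81 and 6.15 in double-labelled cells, and between 4.41 and 4.54 in all 6 E14.5 arrays. Green exceeded red cells in every array, and double-labelled cells overlapped both.

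Of the fibroblast and meningeal markers, the collagen gene Col1a1 was above the threshold in 8 arrays, Col1a2 in 1 and Dcn (decorin) in 0. Col1a1 was at 6.24, 6.03 and 6.01 in E18.5 red, 5.93, 5.99 and 5.71 in green, 6.47, 6.05 and 6.03 in double-labelled, 5.34, 4.92 and 4.99 in E14.5 red and 4.92, 4.999 and 5.14 in E14.5 green cells. At E18.5 red and double-labelled cells overlapped and both lay above every green array, and neither difference was called (adjusted p 0.581 for red and 0.84 for double-labelled against green cells). Both collagen genes encode chains of the same protein. Ttr, transthyretin, which choroid plexus cells make in great amounts, was above the threshold in 0 arrays. Its values were 5.77, 5.60 and 5.55 in E18.5 red, 5.84, 5.67 and 5.63 in green, 5.71, 5.64 and 5.57 in double-labelled, 4.85, 4.81 and 4.66 in E14.5 red and 4.88, 4.97 and 4.85 in E14.5 green cells.

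Hbb-y, the embryonic beta-like globin gene, was above the threshold in all 3 E14.5 red arrays, in 1 of the 3 E14.5 green arrays (replicate 2, at 5.25 against a threshold of 5.19), and in 0 of the 9 E18.5 arrays.

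Class means were set beside the pan-neuronal list. At E18.5 the mean over the 7 radial glia genes was 6.84 ± 0.19 (SD, n = 3) in red, 6.64 ± 0.14 in green and 6.68 ± 0.05 in double-labelled cells, and the 8 astrocyte genes gave 6.57 ± 0.10, 6.53 ± 0.02 and 6.57 ± 0.05. At E14.5 the radial glia mean was 6.30 ± 0.17 in red and 6.47 ± 0.06 in green cells. The microglial mean was 5.94 ± 0.12, 5.82 ± 0.03 and 5.83 ± 0.15 at E18.5, and the endothelial mean 5.30 ± 0.04, 5.26 ± 0.04 and 5.29 ± 0.12. In the microglial class every E18.5 red array (5.86 to 6.08) lay just above every green array (5.78 to 5.85), and for fibroblasts and meninges red cells (5.63 to 5.65) lay above green cells (5.51 to 5.53), while double-labelled cells overlapped both. With the further markers added, the 22 microglial genes overlapped between red (5.58 to 5.85) and green cells (5.54 to 5.59). The 16 fibroblast and meningeal genes still did not, at 5.42 to 5.58 in red and 5.37 to 5.41 in green cells. The median of the background receptor genes separated in the same direction, at 4.73 to 4.80 in E18.5 red and 4.68 to 4.72 in green arrays. In both groups 4 of 6 microglial and 2 of 3 fibroblast members were above the threshold in 0 arrays. Of all single genes tested, 15.3% did not overlap between these groups. Whether the class differences exceed the background shift was not tested. Over the members alone, the other classes of 3 or more genes had overlapping E18.5 groups. The pan-neuronal mean was between 9.97 and 10.36 at E18.5. At E14.5 it was 9.41 to 9.47 in red and 9.12 to 9.27 in green cells. A mean of log2 values over different probes has no unit of abundance and serves only to set arrays side by side.

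**Figure D2:**
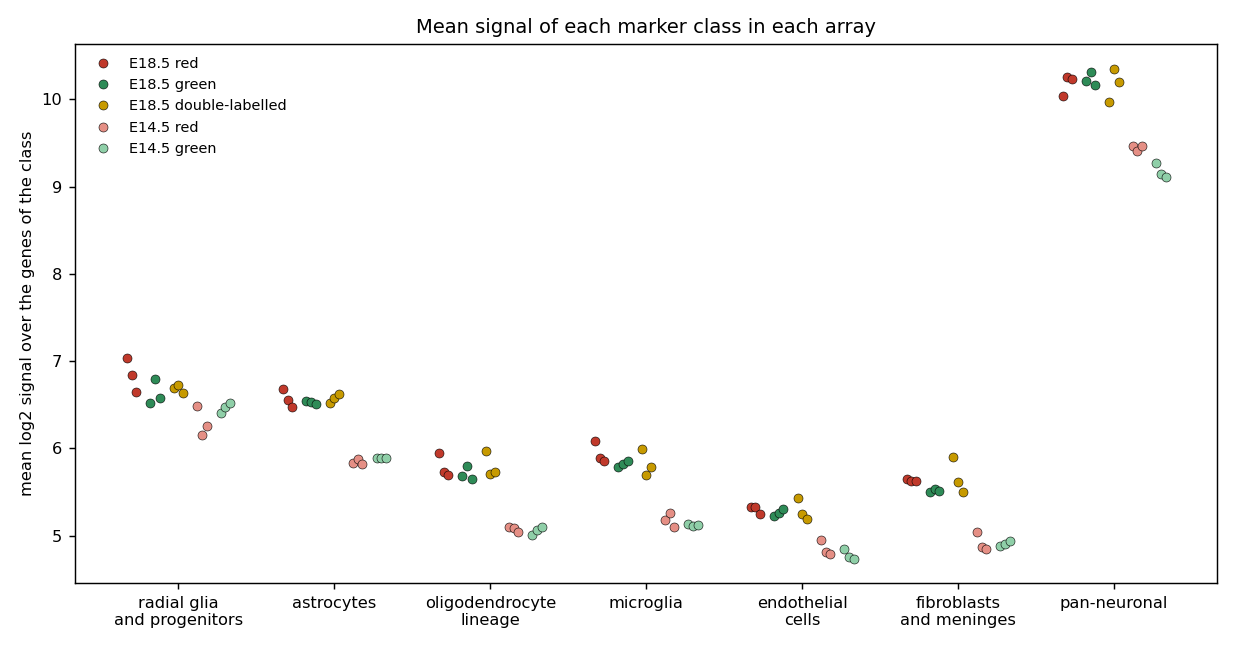
Mean log2 signal over the genes of each class (x axis) in each array, 1 point per array, coloured by group; pericytes (2 genes), choroid plexus and erythroid cells (1 gene each) are not drawn. The E18.5 points sit above the E14.5 points in every class, the pan-neuronal list included, and the shift between stages of the whole table is described with the stage comparisons.

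The comparison of red with green cells at E14.5 asked whether descendants of early Gbx2 cells and cells using Gbx2 at that day differed. Of the 35 members tested, 4 differed: Hbb-y and Slc1a3 were higher and Slc1a2 and Nes lower in red cells. limma's moderated test with Benjamini-Hochberg adjustment over all 16635 genes was used, with a threshold of 0.05, which 3.52% of all genes passed, 1.89% as higher and 1.64% as lower in red cells. An unadjusted p under 0.05 was reached by 7 members and by 11.9% of all genes. Over all 35 members the median log2 difference, red minus green, was 0.03, against 0.00 for all genes. The arrays of the 2 groups did not overlap for 9 of the 35 members, and for 27.9% of all genes.

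Hbb-y, the globin gene, had values of 7.18, 6.21 and 6.43 in E14.5 red and 5.12, 5.25 and 5.09 in E14.5 green cells. All 3 red arrays were higher than any green array, and red replicate 1 was the highest. The log2 difference was 1.46 (SE 0.19) with an adjusted p of 0.00049. Since 2 of the 3 green arrays lay below the background threshold, the fold is not exact. With each such array set at its threshold, the mean of red cells was 2.64-fold higher. That value allows for the background threshold alone and not for the spread of the arrays. Leaving out any 1 of the 6 arrays kept the call, with adjusted p up to 0.0049. Hbb-y is one of several beta-like globin genes of similar sequence, and cross-hybridisation between them was not tested. Of 15 further erythroid genes listed, 6 were in the table, and the adult globins were not analysed here. Among the 4 of these that were tested, 0 differed by limma's adjusted p and 1 had an unadjusted p under 0.05. Hba-x, the embryonic alpha-like globin gene, chosen for mention after its values were seen, fell under the filter and was at 5.51, 5.15 and 4.85 in red and 4.54, 4.48 and 4.55 in green cells. Its red arrays were all higher than its green arrays, and it exceeded the background threshold in red replicate 1 alone among the E14.5 arrays. The mean over Hbb-y and these 6 genes was 5.07 to 5.32 in red and 4.78 to 4.80 in green cells. It contains Hbb-y and Hba-x themselves and is no separate result. Of the 6 genes, 4 (Hbb-bh1, Hbb-bh2, Slc4a1 and Klf1) were above the background threshold in 0 of the 15 arrays.

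Slc1a3, the transporter GLAST, was at 6.17, 5.47 and 5.34 in red and 4.74, 4.60 and 4.60 in green cells. Red replicate 1 was again the highest, and all red arrays exceeded all green arrays, which lay below the background threshold. The difference was 1.01 (SE 0.18, adjusted p 0.0052), and the call was kept without any 1 array (adjusted p up to 0.036). With all 3 green arrays set at their thresholds, the mean of red cells was 1.39-fold higher, again with no allowance for the spread of the arrays. Without red replicate 1 the difference was 0.75.

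Slc1a2, the transporter GLT-1, ran the other way, with 7.22, 7.49 and 7.52 in red and 8.14, 8.26 and 8.19 in green cells. Green cells were higher in every array, and both groups were above the threshold. The difference was -0.79 (SE 0.15, adjusted p 0.009). It missed the threshold without red replicate 1 or without green replicate 2, with adjusted p up to 0.058.

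Nes was at 6.46, 6.32 and 6.48 in red and 6.91, 7.03 and 6.96 in green cells, again without overlap. The difference was -0.54 (SE 0.13, adjusted p 0.035), and it missed the threshold when any 1 of the 6 arrays was left out (adjusted p 0.071 to 0.168).

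Fabp7 and Vim, which stood far above background, were not called. Fabp7 was at 8.23, 7.18 and 8.15 in red and 9.11, 9.17 and 9.47 in green cells, a difference of -1.40 (95% interval -2.30 to -0.50) with an adjusted p of 0.105. Vim was at 8.69, 8.63 and 8.54 in red and 8.94, 9.17 and 9.10 in green cells, a difference of -0.45 (-0.80 to -0.10) with an adjusted p of 0.217. For both genes all green arrays were higher than all red arrays. The second transcript cluster of Vim gave -0.37. The remaining 3 radial glia genes, Pax6, Sox9 and Hopx, had differences between 0.03 and 0.10, and the 7 other astrocyte genes between -0.08 and 0.34.

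No gene of the other tested classes was called: 0 of 5 for the oligodendrocyte lineage, 0 of 6 for microglia, 0 of 3 for endothelial cells, 0 of 2 each for pericytes and for fibroblasts and meninges, and 0 of 1 for choroid plexus. One of these 19 genes, C1qb, had an unadjusted p under 0.05 (0.045). The differences of all 19 lay between -0.13 and 0.21, and their 95% intervals are drawn in the plot of differences.

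**Figure D3:**
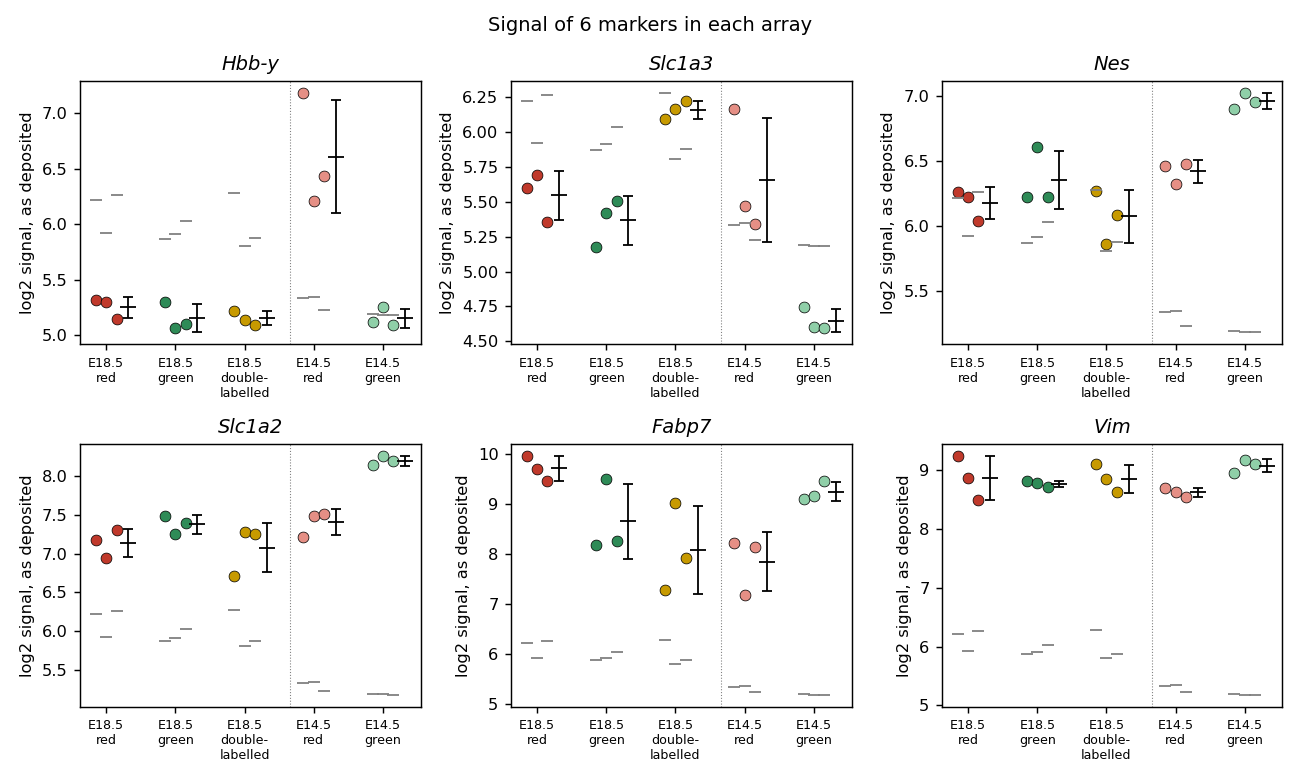
Log2 signal of Hbb-y, Slc1a3, Nes, Slc1a2, Fabp7 and Vim in each array (points, replicates 1 to 3 from left to right within a group), with the mean and SD of the 3 arrays beside them (bars) and the background threshold of each array (grey dashes). Y axes do not start at 0 and differ between genes. At E14.5 the red and green points do not overlap in any of the 6 panels.

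**Figure D4:**
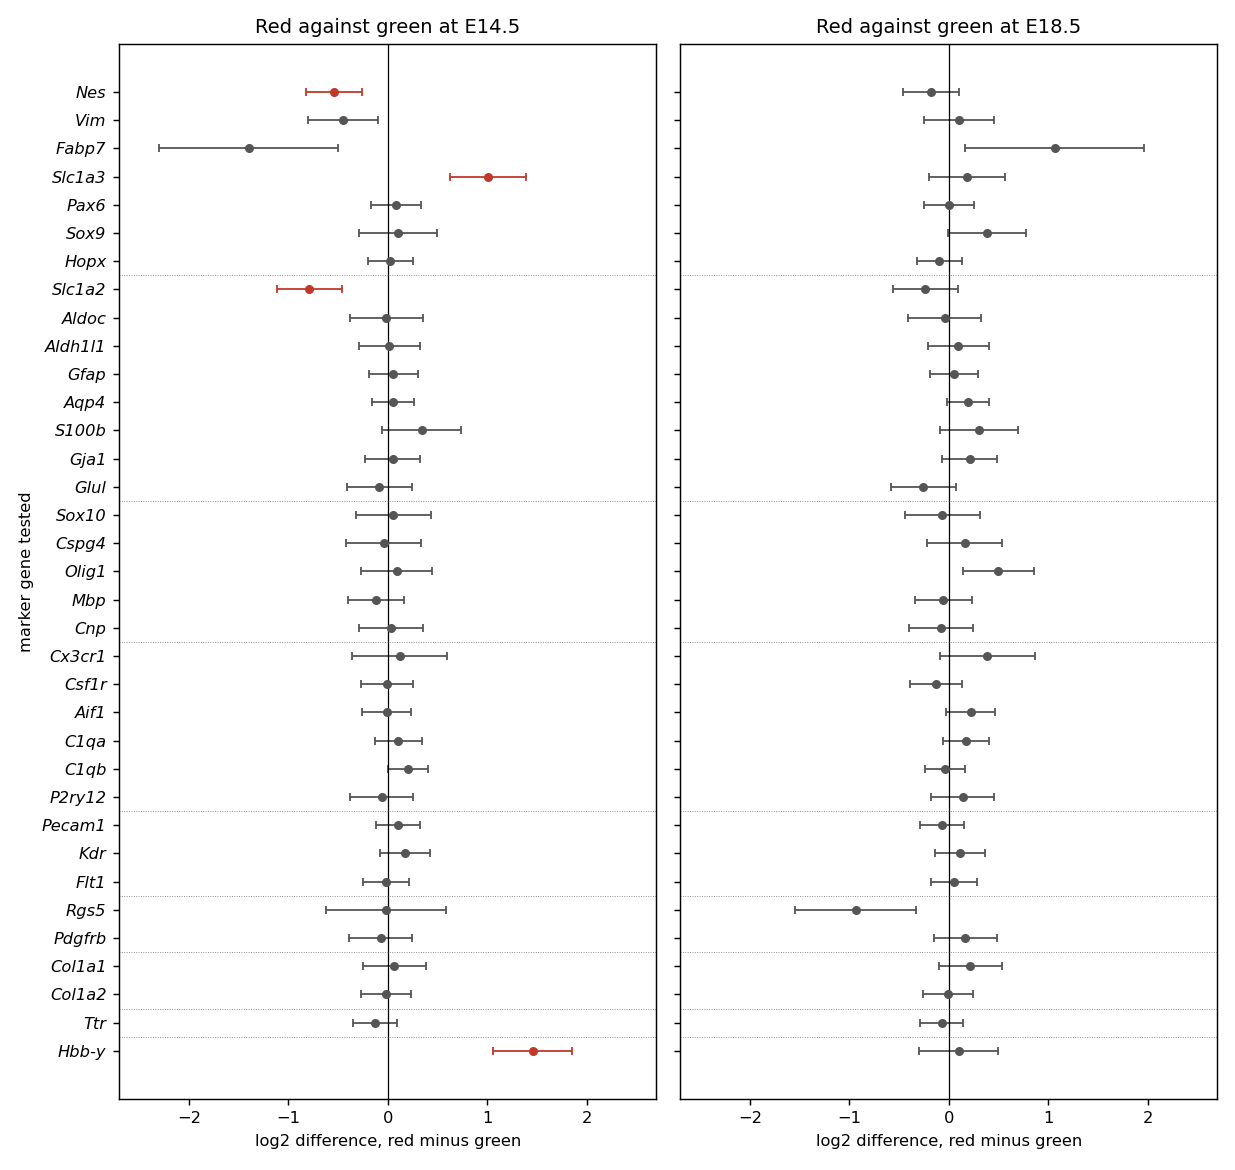
Log2 difference, red minus green, of the 35 tested members at E14.5 (left) and E18.5 (right), with 95% intervals from the fit across all genes; red marks genes with an adjusted p under 0.05. At E14.5 Nes, Slc1a3, Slc1a2 and Hbb-y are marked, and at E18.5 no gene is.

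Further markers of the same classes, listed beside the members, gave 126 symbols, of which 110 were in the table. Across the 15 arrays, 16 of the 110 were above the background threshold throughout and 47 in no array. Those above it throughout were 5 radial glia, 2 astrocyte and 2 oligodendrocyte genes, 4 of 11 pericyte genes (Acta2, Myl9, Notch3 and Gpr4), and Slc2a1 (endothelial), Bgn (fibroblast) and Cd68 (microglial). Above it in no array were 4 of 11 pericyte, 10 of 15 endothelial, 8 of 13 fibroblast and 9 of 16 microglial genes. By limma's adjusted p, 8 of 85 further markers tested were called between red and green cells at E14.5, against 3.52% of all genes. An unadjusted p under 0.05 was reached by 13 of them, against 11.9% of all genes. Among the further radial glia genes, 4 of 15 tested were called. Pou3f2, a neural transcription factor, was lower in red cells by 1.87 on the log2 scale (SE 0.19, adjusted p 9.6e-05), and Prom1, the progenitor surface protein prominin, by 0.96 (SE 0.14, adjusted p 0.0013). Ptprz1 was lower too, and Ddah1 was higher (1.05). In the other classes the calls were 1 of 13 astrocyte genes (Plpp3, lower), 1 of 11 oligodendrocyte genes (Cspg5, a proteoglycan gene, higher by 1.13), 1 of 7 fibroblast genes (Fn1, fibronectin, higher by 0.48), 1 of 6 choroid plexus genes (Otx2, a transcription factor, lower by 1.63 on the log2 scale) and 0 among microglial, endothelial, pericyte and erythroid genes, of which 0, 1, 1 and 1 had an unadjusted p under 0.05. In the same comparison 4 of 16 pan-neuronal genes, Ina, Nefl, Nefm and Syt1, were higher in red cells, with a median difference of 0.23 over the list. The part of that shift in the marker differences was not tested.

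At E18.5, 0 of the 35 members differed between red and green cells (0.613% of all genes passed), 0 between double-labelled and green cells (0.0361%) and 0 between double-labelled and red cells (0.0902%). These 3 comparisons share their groups and are not independent. In each of them 3 members reached an unadjusted p under 0.05, against 10.0%, 5.70% and 4.52% of all genes. The arrays did not overlap for 5, 3 and 4 members, against 15.3%, 8.15% and 4.18% of all genes. The median difference over the members was 0.10, 0.07 and -0.01. A missed threshold with 3 arrays a group does not show equal levels, and 95% intervals are given for the members named.

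For red against green cells, the members with the smallest p were Rgs5 and Olig1. Rgs5 was lower in red cells by 0.94 on the log2 scale (95% interval -1.54 to -0.33, adjusted p 0.238), and its second transcript cluster gave -0.08, so the 2 clusters disagree. Olig1 was at a difference of 0.50 (0.14 to 0.86, adjusted p 0.312). Fabp7, at 9.97, 9.71 and 9.47 in red and 8.19, 9.51 and 8.26 in green cells, differed by 1.06 (95% interval 0.16 to 1.96, adjusted p 0.428), opposite in sign to E14.5. Red and green arrays overlapped there, because green replicate 2 was at 9.51.

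For double-labelled against green cells, the member with the smallest p was Slc1a3. Its values were 6.09, 6.16 and 6.22 in double-labelled cells, 5.17, 5.42 and 5.51 in green and 5.60, 5.69 and 5.35 in red cells. Every double-labelled array exceeded every array of the other 2 groups. The difference was 0.79 against green (0.41 to 1.18, adjusted p 0.26) and 0.61 against red cells (0.23 to 0.99, adjusted p 0.544), so neither passed the threshold. For double-labelled against red cells the smallest p belonged to Fabp7, at 7.29, 9.03 and 7.92 against 9.97, 9.71 and 9.47. The groups did not overlap, and the difference was -1.64 (-2.54 to -0.74, adjusted p 0.354). Double-labelled replicate 1, a narrow-range array, was the lowest. Without both narrow-range arrays, 0 members were called in any of the 3 E18.5 comparisons. The shares of all genes called were then 1.28% for red against green, 0.210% for double-labelled against green and 0.234% for double-labelled against red cells. Of the 85 further markers tested, limma called 0 in each of the 3 comparisons. In the order given above, 16, 8 and 7 had an unadjusted p under 0.05, against 10.0%, 5.70% and 4.52% of all genes.

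The comparison between stages carries an offset of the whole table. The median of the tested genes was higher at E18.5 than at E14.5 by 0.65 in red and 0.70 in green arrays. Each array was therefore set to its own median before stages were compared, and every call was repeated as deposited and after quantile normalization. With the medians aligned, the receptor genes used as background were lower at E18.5 by 0.34 in red and 0.43 in green cells, so a fall of that size in a dim gene is the same as the fall of the background genes.

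In red cells, 10 of 35 members changed between E14.5 and E18.5 (4 higher, 6 lower at E18.5), against 23.2% of all genes (9.90% and 13.3%). In green cells 10 of 35 changed (3 higher, 7 lower), against 33.1% (13.0% and 20.1%). The members' share was thus near that of all genes and is no result about them as a set. In each population 5 calls were kept under all 3 scalings. The share of all genes kept under all 3 was not counted, so that number is no result about the members as a set.

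Aldoc and C1qa were higher at E18.5 in both populations under all 3 scalings. Aldoc was higher by 0.63 in red (SE 0.16, adjusted p 0.0095) and 0.61 in green cells (SE 0.16, adjusted p 0.008). C1qa, a chain of the first complement component, had values of 6.35, 6.18 and 6.41 in E18.5 red and 5.04, 5.33 and 5.12 in E14.5 red cells, and of 6.13, 6.14 and 6.14 and 5.04, 4.94 and 5.21 in green cells. Stages did not overlap in either population. The difference with medians aligned was 0.50 in red (adjusted p 0.0065) and 0.38 in green cells (adjusted p 0.019), where it missed the threshold on leaving out any of 4 of the 6 arrays, green replicates 2 and 3 at E18.5 and 1 and 2 at E14.5 (adjusted p up to 0.088). Of 11 further microglial genes 0 changed in either population by limma's adjusted p, and 0 in red and 2 in green cells had an unadjusted p under 0.05.

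Olig1 was higher at E18.5 in red cells, by 0.81 (SE 0.17, adjusted p 0.004). In green cells its difference was 0.36, with an adjusted p of 0.133. Rgs5 was higher at E18.5 in green cells, by 1.43 (SE 0.27, adjusted p 0.00084), and differed by 0.55 in red cells (adjusted p 0.152). Its second transcript cluster gave 0.31 in green and 0.23 in red cells with medians aligned. All 6 E14.5 arrays lay below the background threshold for Aldoc, Olig1 and Rgs5, and 5 of them for C1qa, so the sizes of these differences are not exact. For neither gene was the difference between populations called: the stage-by-population test with limma gave an adjusted p of 0.734 for Olig1 and 0.494 for Rgs5.

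Nes and Slc1a2 were lower at E18.5. In green cells both passed under all 3 scalings, Nes by -1.30 (SE 0.14, adjusted p 1e-05) and Slc1a2 by -1.52 (SE 0.14, adjusted p 2.7e-06) with medians aligned. In red cells the differences were -0.89 and -0.92 with medians aligned, and -0.24 and -0.27 as deposited, where neither passed. Nes was at 6.27, 6.23 and 6.04 in E18.5 red and 6.23, 6.61 and 6.23 in E18.5 green cells as deposited, so that green cells were the higher group at both stages by their means, with overlap at E18.5. Slc1a2 was at 7.17, 6.94 and 7.30 in E18.5 red, 7.49, 7.25 and 7.39 in E18.5 green and 6.71, 7.27 and 7.25 in double-labelled cells.

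Fabp7 had opposite signs in the 2 populations. It was higher at E18.5 in red cells by 1.22 (adjusted p 0.039) under all 3 scalings, but leaving out any 1 array other than E14.5 red replicate 1 ended that call (adjusted p up to 0.167). In green cells it was lower by 1.29 on the log2 scale (adjusted p 0.022), and not called as deposited (-0.59). That call was kept only without E18.5 green replicate 2 or E14.5 green replicate 1, and ended without any of the other 4 arrays (adjusted p up to 0.095). Vim was at 9.24, 8.87 and 8.49 in E18.5 red, 8.80, 8.78 and 8.71 in green and 9.09, 8.84 and 8.61 in double-labelled cells. In green cells it was lower at E18.5, by -1.004 (adjusted p 0.00042), and by -0.31 as deposited, where it was not called. Slc1a3 was lower at E18.5 in red cells, by -0.76 (adjusted p 0.0072), and by -0.11 as deposited, where it was not called. The call was kept without any 1 array (adjusted p up to 0.032), while leaving out E14.5 red replicate 1 moved the value to -0.50. All 3 E18.5 red arrays lay below the threshold.

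Hbb-y was lower at E18.5 in red cells under all 3 scalings, by -2.01 with medians aligned (SE 0.19, adjusted p 6.4e-06). Its E18.5 values were 5.31, 5.30 and 5.14 in red, 5.30, 5.06 and 5.10 in green and 5.22, 5.14 and 5.10 in double-labelled cells, all below the background threshold. In green cells the fall of -0.70 with medians aligned (adjusted p 0.01) was 0.0014 as deposited. Kdr and Pax6 were lower in both populations with medians aligned, by -0.41 or -0.42 for Kdr and by -0.42 and -0.38 for Pax6. Their sign turned as deposited, with 0.23 in red cells for both and 0.29 for Kdr and 0.31 for Pax6 in green cells, and the falls were close to those of the receptor genes. For Pax6 the call in green cells ended without any 1 of the 6 arrays (adjusted p up to 0.105), and that in red cells without replicate 2 or 3 at E18.5 or replicate 1 or 2 at E14.5 (up to 0.125). For Kdr the call ended in red cells without replicate 1 or 3 at E18.5 or replicate 1 at E14.5 (up to 0.104), and in green cells without replicate 1 of either stage (up to 0.063). Kdr was at 5.16, 5.43 and 5.16 in E18.5 red, 5.10, 5.16 and 5.16 in E18.5 green, 5.25, 4.87 and 4.95 in E14.5 red and 4.92, 4.80 and 4.84 in E14.5 green cells.

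Further markers were called between stages in several classes, with medians aligned and calls as for the members, against 23.2% of all genes in red and 33.1% in green cells. Among radial glia genes 5 of 15 were called in red (3 higher, 2 lower) and 7 of 15 in green cells (2 higher, 5 lower). Prom1 was at -1.21 in red and -2.32 in green cells, and Pou3f2 at -2.64 in green cells. Since Prom1 lay below the background threshold in every E18.5 array, the sizes of its falls are not exact. Among astrocyte genes 6 of 13 were called in red and 7 of 13 in green cells, 4 of them higher in each case. Ntsr2, a receptor gene of astrocytes, was higher by 1.03 in red and 1.44 in green cells. It lay below the background threshold in every E14.5 array, so these sizes are not exact. Among oligodendrocyte genes 2 of 11 were called in red (2 higher) and 3 of 11 in green cells (2 higher and 1, Nkx2-2, lower). Lhfpl3 was higher by 2.27 and 2.43, and Cspg5 by 1.11 and 1.92. The sizes for Lhfpl3 are not exact, since it exceeded the background threshold in 2 E14.5 red arrays and 0 E14.5 green arrays. The pan-neuronal list had 7 of 16 called in red (4 higher, 3 lower) and 5 of 16 in green cells (5 higher). The other scalings were run for the members only in this account.

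Whether the red-green difference itself changed with stage was tested as a difference of differences, in which an offset common to a stage cancels. Of 35 members 1 passed, Hbb-y, against 1.05% of all genes. Its red-green difference was 1.46 at E14.5 and 0.10 at E18.5, a change of -1.36 (SE 0.26, adjusted p 0.022). The call was kept in 7 of 12 fits that left out 1 array, and ended without E18.5 red replicate 3, E18.5 green replicate 1 or 3, or E14.5 green replicate 2 or 3 (adjusted p up to 0.076). Fabp7 had the greatest change in size, 2.46, from -1.40 at E14.5 to 1.06 at E18.5, with an adjusted p of 0.065. Among further radial glia genes Pou3f2 (2.32, adjusted p 0.0006) and Prom1 (1.06, adjusted p 0.017) passed. Prom1 lay below the background threshold in every E18.5 array, so its red-green difference at E18.5 is between values below the threshold.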

How the data were processed

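RNA from fluorescence-sorted embryonic thalamic cells was amplified (10 ng, Nugen Ovation Pico WTA System V2), per the labels' protocols. The authors processed the arrays with Affymetrix Expression Console, per the submitters' processing notes, and deposited log2 signals, with the algorithm and version not given in the sources used here. Arrays have no sequencing depth, and their number limits the precision. Of 33794 transcript clusters, 23521 named 1 gene in the platform annotation, 1814 several and 8459 none. Genes whose mean signal was in the bottom 25% (under 5.07) were dropped, leaving 16635 for testing.

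One linear model with a mean per group covered the 15 arrays (limma 3.58.1 in R 4.3.3), two-sided, with Benjamini-Hochberg adjustment. Within a stage the deposited log2 values were used, and between stages the values minus each array's median. SDs describe the 3 arrays of each group, while SEs and 95% intervals are the model's. The script was tested on simulated data. Same-numbered double-labelled and red arrays deviated together from their group means, with correlations of 0.669, 0.496 and 0.487. Arrays of different numbers had correlations of -0.610 to 0.430. This pairing was seen in the data and is not stated in the labels. A block on the number left 0 members called in that comparison, against 0.192% of all genes.

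The members, the further markers and the tests were chosen with earlier results of these data known. Per-array values are given for members called within a stage, up to 4 per class with the smallest adjusted p between stages, and the widest-ranging member of each class, with up to 2 called further markers per class and comparison named first. The thalamic transcription factor genes were added after values were seen. Alternatives were other scalings, array weights, no filter, all clusters averaged, the compared groups alone, a replicate block, other background percentiles, and leaving out arrays.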

Additional observations from a re-analysis of the deposited data

Results flagged for a closer look

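The red-green difference of Hbb-y, the embryonic beta-like globin gene, differed between stages by a test of the difference itself. It was 1.36 lower on the log2 scale at E18.5 than at E14.5 (-1.36, SE 0.26, limma adjusted p 0.022), from a difference of 1.46 at E14.5 to 0.10 at E18.5. In the 9 E18.5 arrays and 2 of the 3 E14.5 green arrays Hbb-y lay below the background threshold of its array.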

How the results depend on the processing

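Of 381 values of single genes under other settings, 321 kept their direction and side of the threshold, 55 kept their direction and lost the call, and 5 turned. The 5 that turned did so as deposited, between stages: Kdr at 0.23 in red and 0.29 in green cells, Pax6 at 0.23 and 0.31, and Hbb-y in green cells at 0.0014. As deposited, 28 members were called between stages in red and 30 in green cells, because that setting keeps the offset between stages, and so were 72.4% and 73.5% of all genes. With 1 weight per array, where the estimation of the weights stopped before its convergence tolerance, the counts were 2 for double-labelled against green (S100b, Slc1a3), 2 for double-labelled against red (Fabp7, Slc1a3), 7 for red against green at E14.5 (with C1qb, Fabp7 and Vim added), 16 between stages in green cells and 4 for the stage difference of red against green. The shares of all genes called under that setting were 6.67%, 2.68%, 15.2%, 55.3% and 3.87% in the same order. For that stage difference 2 members, Hbb-y and Fabp7, were called after quantile normalization, without the narrow-range arrays, with the compared groups alone and with arrays centred on their median, and 0 with 1 weight per stage. Those settings called 1.24%, 2.92%, 1.88%, 1.29% and 1.18% of all genes.

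The main model paired no arrays by number. Red and green arrays of the same number had correlations of deviations of 0.465, 0.406 and 0.058 at E18.5, against -0.420 to 0.215 between different numbers. At E14.5 these were 0.069, 0.217 and 0.265, against -0.256 to 0.030. For double-labelled against green they were 0.373, 0.414 and 0.047, against -0.394 to 0.137. A replicate block on the number gave 1 call for red against green at E18.5 (Rgs5) and 3 for the stage difference (Fabp7, Hbb-y, Rgs5), and it changed no other count by over 1.5 times (5 members at E14.5, 8 in each stage comparison, 0 for both comparisons with double-labelled cells). With the block, 1.41% of all genes were called for red against green at E18.5, 2.06% for the stage difference and 5.06% at E14.5. The share was 0.0721% for double-labelled against green and 0.192% for double-labelled against red cells. Between stages it was 22.5% in red and 24.9% in green cells. Leaving out 1 array at a time gave 0 calls throughout for the 3 E18.5 comparisons, 2 to 3 for red against green at E14.5 (2 without red replicate 1 or green replicate 2), 8 to 10 between stages in red, 7 to 8 in green cells, and 0 to 2 for the stage difference. Those fits called up to 0.601% of all genes at E18.5 and 1.48% to 3.17% at E14.5. Between stages they called 16.4% to 24.4% in red and 24.2% to 26.5% in green cells, and for the stage difference 0.457% to 1.29%.

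The count above background was 14, 17, 17, 17 and 17 (E18.5 red, green and double-labelled, E14.5 red and green) at the 90th percentile of the receptor genes, and 3, 4, 2, 4 and 5 at the 99th. With 1 array left out it ranged from 7 to 12 in E18.5 red and from 8 to 14 in double-labelled cells. Averaging all clusters of a gene moved class means by more than 1 SD for radial glia (6.60 in double-labelled, 6.40 in E14.5 green), astrocytes (6.46, 6.42 and 6.47 in E18.5 red, green and double-labelled, 5.76 and 5.81 in E14.5 red and green), pericytes (4.75 in E14.5 red) and fibroblasts (5.46 and 5.33 in E18.5 red and green, 4.80 and 4.78 in E14.5 red and green). Causes of these changes were not tested. Dim genes near the receptor level, 18 of the 38, limit what any of these comparisons can show.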
